A study of Mus musculus with 6 samples.

Results

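TEC is the annotation class, awaiting experimental evidence, for places in the genome where unspliced expressed sequence tags pile up with features of a polyadenylation site but where no transcript has been established. The 1532 rows of the deposited RNA-seq table whose Ensembl biotype was TEC were taken from 20066 rows in all, and each was placed by its chromosome, start and end against the 14257 protein_coding rows of the same table. The RNA came from primary cardiomyocytes (CMs) of C57BL/6 mice on postnatal day 0 or 1, which were cultured for 96 h with the solvent dimethylsulfoxide (DMSO, 3 libraries) or with cell-permeable α-ketoglutarate (αKG, 3 libraries, 100 µM per the labels, while the study's methods give a different concentration), an intermediate of the Krebs cycle. All 6 libraries were made from total RNA, no allele or agent other than these is given, and the labels do not say whether the 3 replicates of a group were separate cell isolations. The study's methods describe each neonatal CM sample as one isolation from pooled hearts in the section on imaging, and whether this holds for the libraries is not given. The p-values then measure only the spread between these libraries, which may be technical. The question addressed was whether unconfirmed transcripts differed between αKG-treated and control CMs, and whether they moved with the genes in which they lie.

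A gene is first copied as a precursor RNA that holds its introns, which the spliceosome removes and the nucleus degrades. A library made from total RNA by random priming captures precursor RNA and retained introns beside spliced messages, whereas a library made from poly(A)+ RNA holds far less of them. In a table of reads per locus, reads from a separate transcript inside an intron and reads from the precursor of the surrounding gene cannot be told apart. Per the labels, DNA was digested on the column during extraction.

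TEC loci were short and nearly all unspliced. Their median length was 2204 bases (59 to 74456), 1529 had a single exon in the annotation, and their median GC content was 41.9%, against 49.8% in protein_coding rows. They were unevenly spread over the genome, with 262 on chromosome 5 (18.4% of the rows of that chromosome), 240 on chromosome 1 and 154 on chromosome 3, but 7 each on chromosomes 11 and 19 and 3 on chromosome X. Of the 1532 loci, 1170 (76.4%) lay wholly inside the span of a coding gene, 73 overlapped one in part and 289 lay outside. The largest class, 1040 loci, lay inside a coding gene on its own strand and touched none of its exons, and these are called intronic loci here. A further 84 lay inside on the opposite strand and 46 touched a coding exon on the same strand. Of the loci outside, 64 lay within 5000 bases downstream of a coding gene on the same strand, 54 lay within 5000 bases upstream on the opposite strand, 22 were near in another orientation and 149 were farther away.

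The 3′ ends were compared because a polyadenylation site is part of how the class is defined. The poly(A) signal was searched as AATAAA or ATTAAA in the last 50 bases of the transcript strand, and both were counted once per locus. It was present in 410 of 1530 TEC transcripts with a sequence (26.8%), in 74.0% of protein_coding rows, 50.1% of lincRNA rows and 61.6% of all rows. Among TEC loci the share was 18.6% in intronic loci (193 of 1038), 42.2% in loci just downstream of a coding gene on the same strand, 54.8% in partly overlapping loci and 55.6% in loci upstream on the opposite strand. The reverse complements of both words, TTTATT and TTTAAT, were present in the same window of 8.56% of TEC loci, and the signals themselves were present in the middle 50 bases of 5.75%. The last 60 bases (GENCODE M21 transcripts, GRCm38) are shown for the 2 loci with the highest levels, for the locus with the lowest change, and for intronic loci with and without the signal. The capitals mark AATAAA or ATTAAA where it lies wholly in the last 50 bases.

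Gm44250 and Gm37829 lay downstream of *Pon3* and *Fsd2* (chr6:5216258-5216317 and chr7:81530309-81530368, both minus strand), and Gm44645 lay downstream of *Rgma* (chr7:73423843-73423902, plus strand).
Gm44250: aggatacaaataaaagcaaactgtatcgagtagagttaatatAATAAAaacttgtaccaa
Gm37829: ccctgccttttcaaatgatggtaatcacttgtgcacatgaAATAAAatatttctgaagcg
Gm44645: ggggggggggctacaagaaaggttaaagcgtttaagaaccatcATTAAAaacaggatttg

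Gm43490 in *Cacna2d1* (chr5:16109721-16109780, plus strand) and Gm45222 in *Picalm* (chr7:90150195-90150254, plus strand) were intronic with a signal.
Gm43490: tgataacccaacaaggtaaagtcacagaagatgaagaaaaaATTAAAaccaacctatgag
Gm45222: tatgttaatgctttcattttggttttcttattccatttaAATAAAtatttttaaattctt

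Gm47493 in *Ryr2* (chr13:12047342-12047401, minus strand), Gm43953 in *Pdzrn3* (chr6:101325339-101325398, minus strand), Gm43011 in *Camk2d* (chr3:126604402-126604461, plus strand) and Gm43322 in *Ank2* (chr3:126974256-126974315, minus strand) were intronic with no signal in this window.
Gm47493: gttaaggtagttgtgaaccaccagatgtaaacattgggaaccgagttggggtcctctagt
Gm43953: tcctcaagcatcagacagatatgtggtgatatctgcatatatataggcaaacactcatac
Gm43011: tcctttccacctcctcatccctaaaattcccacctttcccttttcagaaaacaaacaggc
Gm43322: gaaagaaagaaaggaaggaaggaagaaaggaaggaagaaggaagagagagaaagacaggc

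In the 5 loci shown with a signal, the stretch from its first base to the 3′ end measured 17 to 21 bases. In other named loci with a signal, not shown, it varied more: 10 bases in Gm42515, 32 in Gm44291, 39 in Gm43009 and 41 in Gm37677.

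The values were reads scaled by each library's size factor and rounded, called normalized reads here. Estimated reads per library in genes were 4219262, 4428655 and 4291919 in DMSO and 3863035, 3725428 and 4386742 in αKG, as read from the steps between low values. αKG replicate 3 stood apart from its group: over all rows its log2 values correlated at 0.962 and 0.963 with the other αKG libraries and at 0.977 to 0.98 with the DMSO libraries. The main counts and medians below are therefore given with and without this library. All 12 cardiomyocyte markers were measured and none was at 0, and 1 was called higher in αKG (against 2.83% of all rows). They summed to 77045 to 79942 in DMSO and to 112033, 115502 and 82295 in αKG replicates 1 to 3. Of 10 endothelial markers, 8 were called lower in αKG, against 0.952% of all rows (sums of 2286 to 2394 in DMSO and 1568 to 1710 in αKG). None of 10 fibroblast markers was called (6108 to 6305 in DMSO, and 11975, 11513 and 5902 in αKG replicates 1 to 3). None of 10 epicardial markers was called either (508 to 566, and 1255, 1286 and 519). The sums of the cardiomyocyte, fibroblast and epicardial lists were thus higher in the same αKG libraries as the TEC loci described next. In αKG replicate 3 these sums were at or near the DMSO level. A sum follows its most abundant members, and the median log2 fold changes of the single markers were 0.11, 0.44 and 1.07. Groups were apart and higher in 4, 2 and 3 markers of these lists (against 13.7% of all rows) and lower in 2, 0 and 0 (against 14.6%). Of 10 mural markers 1 was called higher, against 2.83% of all rows (sums of 5699 to 5800 in DMSO and 6141 to 6631 in αKG). Of 10 macrophage markers 4 were measured, at sums of 22 to 35 against 24 to 41, and none was called. The part of these cell types in the results was not tested, and fewer cells of a type cannot be told apart from less RNA per cell.

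TEC loci held more of the reads in αKG than in DMSO. They made up 0.417%, 0.485% and 0.435% of all normalized reads in the 3 DMSO libraries and 1.07%, 1.01% and 0.527% in the 3 αKG libraries, in replicate order. Every αKG library was above every DMSO library, but αKG replicate 3 was closer to the DMSO values than to its own group. The mean share was 0.446% ± 0.0352 in DMSO and 0.869% ± 0.298 in αKG (SD, n = 3 each), a ratio of 1.95, or 2.34 without αKG replicate 3. The exact two-sided permutation test gave p = 0.1, the smallest that 3 against 3 libraries allow. Intronic loci alone made up 0.266%, 0.318% and 0.276% in DMSO and 0.802%, 0.76% and 0.353% in αKG. Across all 1532 loci the median shift of log2(value + 1) from the DMSO mean was 1.25, 1.14 and 0.24 in αKG replicates 1 to 3, and -0.06, 0.13 and 0.0 in the DMSO libraries.

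TEC loci were lowly expressed, with a median of 7.58 normalized reads over the 6 libraries and 646 loci at a mean of at least 10. The table listed only rows that reached 2 in some library, and 224 TEC loci were listed through αKG alone, being under 2 in every DMSO library, while 11 were under 2 in every αKG library. Counts over all listed loci are therefore tilted towards αKG, and values for loci with a mean of at least 10 over all 6 libraries stand beside them. That mean takes in the αKG libraries, so the filter keeps some of the tilt. The median log2 fold change was 0.86 over all listed loci and 0.97 over the 646, against 0.04 and -0.03 over all rows. It was 0.84 in the 469 loci with a mean of at least 10 in the DMSO libraries alone. None of the 646 was at 0 in all DMSO libraries.

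Which loci differed between the groups was asked with limma on log2(value + 1) over all 20066 rows, with a Benjamini-Hochberg adjusted p under 0.05 as the call. Of the 1532 TEC loci, 69 were called higher in αKG (4.5%, against 2.83% of all rows) and none was called lower (against 0.952% of all rows). Without adjustment 617 were higher and 8 lower at a p under 0.05, where 15.7% and 12.4% of all rows were. Of the 69 called loci, 61 lay inside a coding gene, 59 were intronic and they belonged to 58 coding genes. Their log2 fold changes ran from 0.74 to 2.94 with a median of 1.52, and in 65 of them αKG replicate 3 was below the other αKG libraries. A fit of the 13409 rows with a mean of at least 10 called 65 TEC loci higher and 1 lower, where 4.44% and 2.07% of its rows were called. The count rested on single libraries: limma called 752 loci (746 higher and 6 lower) without αKG replicate 3, where 19.3% of all rows were called higher and 17.9% lower. It called none without αKG replicate 1, without αKG replicate 2 or without DMSO replicate 1, 2 or 3, where 259 to 475 loci were still higher and 5 to 9 lower at an unadjusted p under 0.05.

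A count that does not use the variance model gave the same direction for far more loci. In 435 TEC loci (28.4%, against 13.7% of all rows) every αKG library was above every DMSO library, and in 14 (0.914%, against 14.6%) every αKG library was below. With a mean of at least 10 these counts were 275 of 646 (42.6%, against 16.1% of all rows at that level) and 3 (against 20.6%). With that mean in the DMSO libraries alone they were 188 of 469 (40.1%, against 14.8% of all rows so chosen) and 3 (against 2787 of 12971 rows). Without αKG replicate 3 the groups were apart and higher in 1004 TEC loci (65.5%, against 30.4% of all rows) and lower in 32 (2.09%, against 27.4%), and at a mean of at least 10 in 570 (88.2%, against 32.4%) and 9 (1.39%, against 38.0%). The share with separated groups rose with level, so rows were compared within bands of the mean over all 6 libraries, which keep the same tilt. At a mean of 50 or more, 56.6% of 113 TEC loci and 13.9% of 9872 protein_coding rows had all αKG libraries above DMSO. At 10 to under 50 these shares were 39.6% of 533 and 16.7% of 2013. Below a mean of 2 they were 8.04% and 6.19%. Rows of the biotype sense_intronic, a curated class of transcripts in introns, had shares of 38.7% and 47.8% in the upper 2 bands, and lincRNA rows 21.2% and 18.5%. Over all levels the 219 sense_intronic rows were close to TEC loci, with groups apart and higher in 28.8% and a median log2 fold change of 0.77. Their median shifts were 1.2, 1.09 and 0.22 in αKG replicates 1 to 3. The rise was thus not particular to TEC loci. Without αKG replicate 3 the shares at 50 or more were 93.8% in TEC, 87.0% in sense_intronic and 26.1% in protein_coding rows. Below 2 they were 32.2%, 26.7% and 17.3%.

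**Figure D1:**
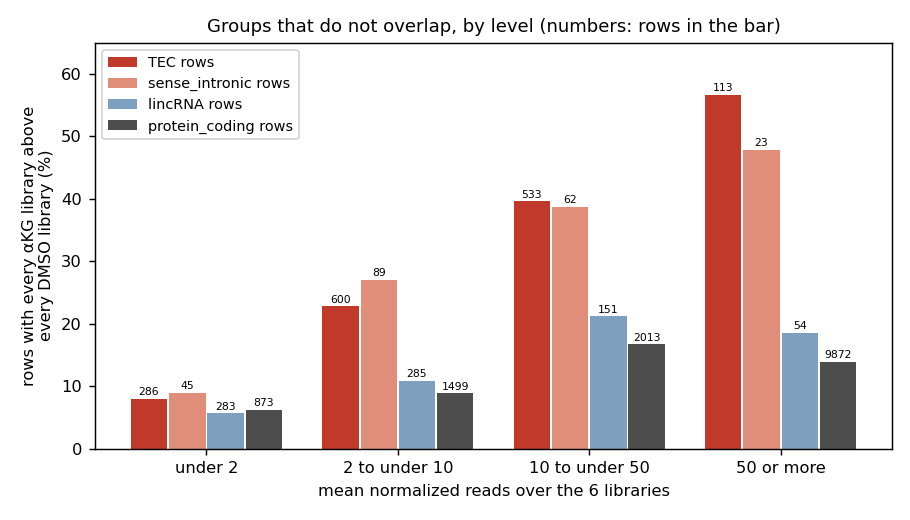
Share of rows (%, y axis) in which every αKG library was above every DMSO library, by the mean of normalized reads over the 6 libraries (x axis, 4 bands) for TEC, sense_intronic, lincRNA and protein_coding rows, with the number of rows above each bar. TEC rows rise from 8.04% below a mean of 2 to 56.6% at 50 or more, and sense_intronic rows from 8.89% to 47.8%. The protein_coding rows lie between 6.19% and 16.7%.

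The shift varied in size with the position of the locus. Intronic loci had a median log2 fold change of 1.01 (1040 loci; 1.04 in the 500 with a mean of at least 10), with median shifts of 1.46, 1.37 and 0.28 in αKG replicates 1 to 3. Loci that touched a coding exon on the same strand had a median of 0.72 (46 loci), and in these the reads shared with the coding exon had been left out by the counting. Loci inside a gene on the opposite strand had a median of 0.41 (84 loci). The counting is not stated to use strand, so reads of such a locus and of the surrounding gene cannot be told apart. Partly overlapping loci had a median of 0.09 (73 loci) and loci upstream on the opposite strand one of 0.0 (54 loci), close to the -0.03 of protein_coding rows. Groups were apart and higher in 354 intronic loci (34.0%), 7 partly overlapping loci (9.59%) and 3 upstream loci (5.56%), against 13.7% of all rows. Without αKG replicate 3, limma called 635 intronic loci higher (61.1%) and 0 lower, 5 partly overlapping loci higher and 3 lower, and 2 upstream loci higher, against 19.3% higher of all rows. The median log2 fold changes without that library were 1.37 in intronic loci, 0.86 in loci that touched an exon, 0.59 in loci on the opposite strand, and 0.13 in both the partly overlapping and the upstream loci. Differences between these classes were not tested.

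**Figure D2:**
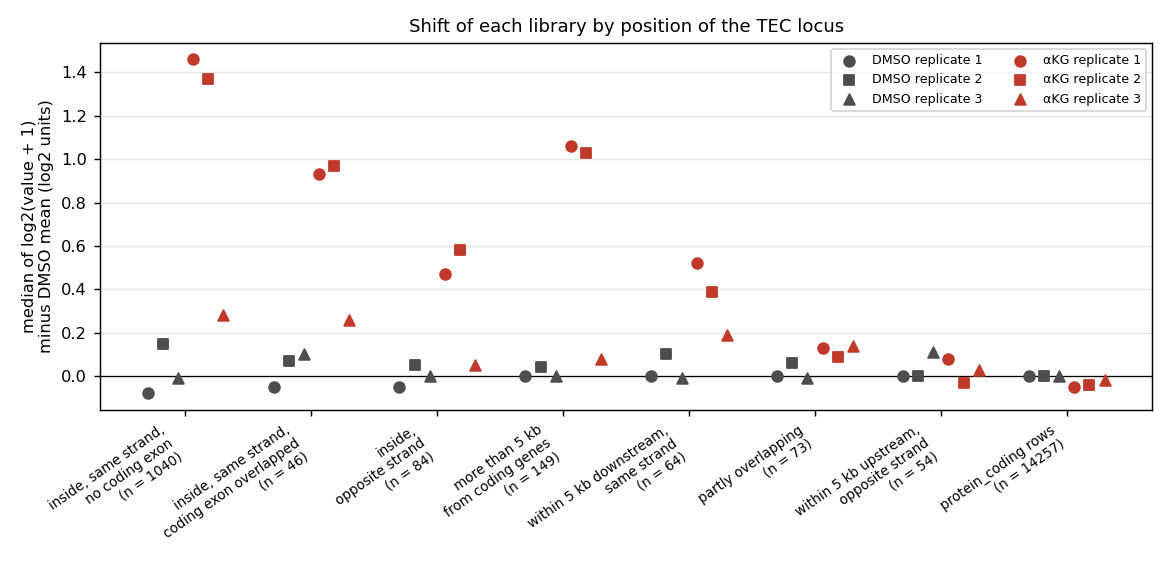
Median over loci of log2(value + 1) minus the DMSO mean (y axis, log2 units) in each of the 6 libraries, for TEC loci by position and for protein_coding rows (x axis, number of rows in brackets). αKG replicates 1 and 2 stand at 1.46 and 1.37 in intronic loci and at 0.08 and -0.03 in loci upstream on the opposite strand, and αKG replicate 3 reaches at most 0.28 in the classes drawn.

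Loci outside coding genes were also compared by whether another non-coding row of the table held them, a split made after their values were seen. The 48 that lay inside a non-coding gene on the same strand, in 26 such genes, had a median log2 fold change of 1.01, and the groups were apart and higher in 14 (29.2%, against 13.7% of all rows). The 236 held by no other row had a median of 0.36, with 35 apart and higher (14.8%). With a mean of at least 10 the medians were 1.15 in 27 loci and 0.37 in 50. When αKG replicate 3 was left out the medians were 1.46 and 0.49 over all 48 and 236 loci, and 36 of the 48 and 77 of the 236 (32.6%) were apart and higher, against 30.4% of all rows. Of the 289 loci outside coding genes, 8 were called higher (2.77%), which is close to the 2.83% of all rows. Of these 8, 5 lay inside a non-coding gene. Gm37606 (chr16:77561650-77564765) lies inside *Mir99ahg*, the host transcript of a microRNA cluster, and stood at 85, 117 and 111 normalized reads in DMSO and 308, 358 and 150 in αKG. All αKG libraries were above DMSO and replicate 3 was the lowest of them. The locus was called higher by 1.29 ± 0.28 on the log2 scale (SE, limma adjusted p = 0.0434; 1.67 without αKG replicate 3). *Mir99ahg* itself stood at 428, 526 and 542 in DMSO and at 993, 1114 and 596 in αKG, and its change of 0.81 on the log2 scale was not called (adjusted p = 0.0546). Gm37298, D130019J16Rik and Gm37534 lie inside a single non-coding gene, *Gm4258*, on chromosome 1, so that these 3 loci are not independent of each other, and their log2 fold changes were 1.27, 1.12 and 1.3. Gm42870, held by no other row, stood at 0 in every DMSO library and at 5, 6 and 4 in αKG, so it was listed through αKG alone.

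The most highly expressed TEC loci included 2 whose groups overlapped widely. Gm44250, which begins 366 bases after the end of *Pon3*, a paraoxonase gene, had the highest mean and stood at 544, 583 and 562 normalized reads in DMSO and 577, 564 and 614 in αKG. Its groups overlapped, and the log2 fold change was 0.05 ± 0.07 (SE, limma adjusted p = 0.638; -0.18 with correction for GC content and length). Gm37829 lies 787 bases after *Fsd2*, which encodes a fibronectin and SPRY domain protein of muscle, and stood at 450, 505 and 487 in DMSO and 432, 367 and 508 in αKG. These groups overlapped too, with -0.15 ± 0.12 on the log2 scale (adjusted p = 0.408), and *Fsd2* itself had -0.15. Both loci carry AATAAA near the end, as printed above.

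Of the 10 loci with the highest means, the groups were apart and higher in 4 and 2 were called higher, where 13.7% and 2.83% of all rows were. Gm47493 lies in an intron of *Ryr2* (chr13:12047342-12052055), the calcium release channel of the sarcoplasmic reticulum, and stood at 143, 192 and 172 in DMSO and 675, 609 and 218 in αKG. All αKG libraries were above DMSO, replicate 3 by little, and the log2 fold change of 1.41 ± 0.35 was not called (SE, limma adjusted p = 0.0552), but was 1.93 without αKG replicate 3 (adjusted p = 0.000456). *Ryr2* itself had 0.27 (adjusted p = 0.0567), and the locus minus the gene was 1.14 ± 0.31 (adjusted p = 0.0323 in the fit of differences described below). Gm45457 in *Sorbs2*, an adaptor protein of the Z-disc, stood at 205, 242 and 223 in DMSO and 536, 593 and 295 in αKG. It was called higher, by 1.02 ± 0.22 (adjusted p = 0.0424), as was *Sorbs2*, by 0.58 (adjusted p = 0.0193). Gm43185 touches an exon of *Nexn*, an actin-binding Z-disc protein, and stood at 228, 293 and 281 in DMSO and 503, 534 and 330 in αKG. It was called higher by 0.74 ± 0.18 (adjusted p = 0.0494), and the groups did not overlap, but with correction for GC content and length the change was 0.18 (adjusted p = 0.261).

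In the remaining high loci αKG replicate 3 lay among the DMSO libraries or close to them. Gm43359 in *Atp2a2*, the calcium pump of the sarcoplasmic reticulum, stood at 232, 267 and 259 in DMSO and 498, 443 and 258 in αKG. Gm37677 in *Ppp1r12b*, a regulatory subunit of myosin phosphatase, stood at 141, 192 and 179 in DMSO and 514, 402 and 175 in αKG. Gm49759, which touches an exon of the pyruvate kinase gene *Pkm*, stood at 159, 144 and 156 in DMSO and 346, 314 and 145 in αKG. None of these was called (limma adjusted p of 0.105, 0.103 and 0.132), and all were called without αKG replicate 3 (0.00115, 0.00174 and 0.000566). With correction for GC content and length the change of Gm43359 was 0.37 in place of 0.61. Gm37296 and Gm37320 lie 79439 and 62525 bases from *Zfat* on chromosome 15, and their log2 fold changes were 0.14 and 0.66, neither called. With correction for GC content and length these were -0.39 and 0.32, and without αKG replicate 3 Gm37320 was called higher by 1.02 (limma adjusted p = 0.000512).

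The 10 largest called rises among the 43 called loci with a mean of at least 20 were all intronic. They ran from 1.52 to 2.81 on the log2 scale (limma adjusted p of 0.0159 to 0.0473). All were also called without αKG replicate 3, where 19.3% of all rows were called higher. In each of them αKG replicate 3 was the lowest αKG library, so a call without it adds little. That this library was still above all DMSO libraries was required by the rule that chose these loci. The mean was taken over all 6 libraries, and in DMSO alone only Gm48958 (39.3) and Gm45222 (31.3) reached 20. Gm43953 in *Pdzrn3*, an E3 ubiquitin ligase gene, stood at 4, 4 and 5 normalized reads in DMSO and 59, 47 and 17 in αKG. It rose by 2.81 ± 0.45 on the log2 scale (SE, adjusted p = 0.0204) and *Pdzrn3* by 0.45 (adjusted p = 0.0422). Gm37258 in *Enah*, a regulator of actin assembly, stood at 10, 20 and 16 in DMSO and 88, 98 and 30 in αKG. It rose by 2.04 ± 0.44 (adjusted p = 0.0424) and *Enah* by 0.48 (adjusted p = 0.0224).

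In the other 8 the coding gene was not called. Gm43490 in *Cacna2d1*, an auxiliary subunit of voltage-gated calcium channels, stood at 17, 25 and 14 in DMSO and 111, 110 and 33 in αKG. Gm43322 in *Ank2*, which encodes ankyrin-B, the anchor of ion channels and exchangers in the CM membrane, stood at 19, 20 and 15 in DMSO and 80, 81 and 34 in αKG. Gm45222 in *Picalm*, a clathrin assembly gene, stood at 29, 37 and 28 in DMSO and 125, 113 and 53 in αKG. Their log2 fold changes were 1.97, 1.7 and 1.52, and those of the coding genes 0.33, 0.28 and 0.23. Gm44291 in *Dennd1a*, which regulates a Rab GTPase of endosomes, stood at 15, 22 and 19 in DMSO and 73, 79 and 36 in αKG. The locus rose by 1.63 ± 0.32 (SE, limma adjusted p = 0.035), while *Dennd1a* had 0.0 on the log2 scale. Gm48958 in *Samd4*, an RNA-binding translational repressor, stood at 34, 51 and 33 in DMSO and 141, 144 and 87 in αKG and had the smallest adjusted p of the 10 (0.0159). Gm37140 in *Pam*, Gm43300 in *Ptbp2* and Gm48382 in *Ttc7b* rose by 1.61, 1.54 and 1.54. With correction for GC content and length 8 of the 10 were called: Gm43300 then had 0.64 (limma adjusted p = 0.1) and Gm37140 had 1.21 (adjusted p = 0.0508), while Gm43322 was still called, at 1.05. Of the 10, limma called 6 with quantile normalization, 1 with voom and none without a mean trend, with the replicate block or without any one library other than αKG replicate 3.

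**Figure D3:**
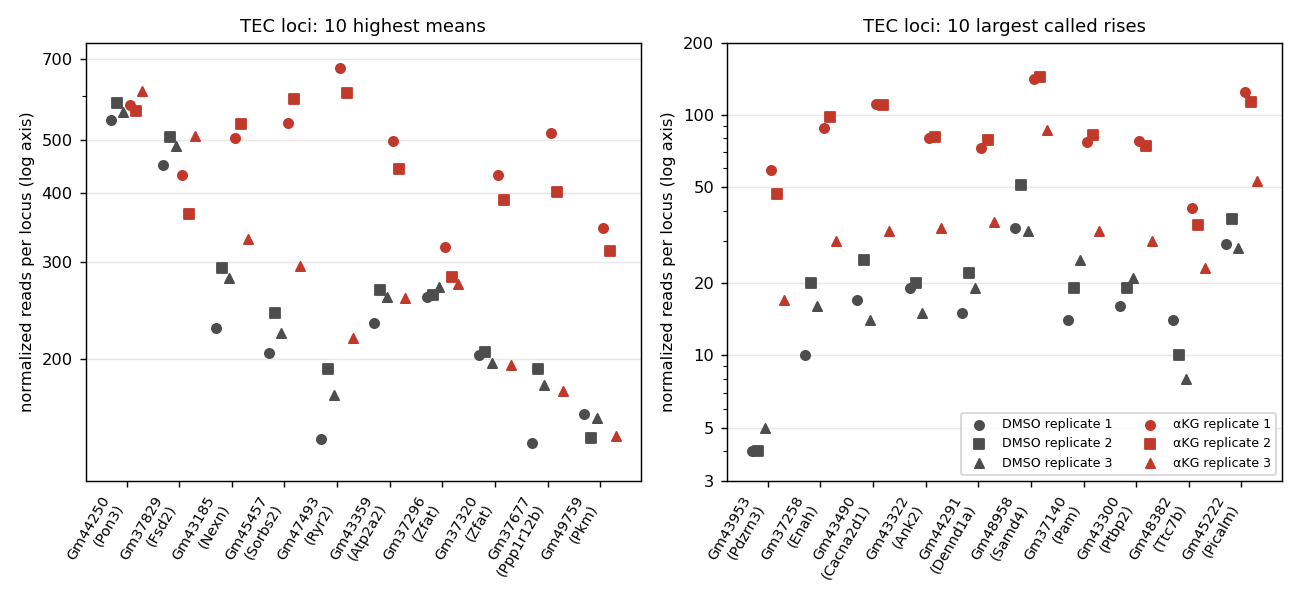
Normalized reads (y axes, log scale) in each DMSO and αKG library for the 10 TEC loci with the highest means (left) and the 10 largest called rises (right), with the coding gene that holds the locus or lies nearest to it in brackets. On the right every αKG library is above every DMSO library, which the rule of choice required. There αKG replicate 3 is the lowest of its group. On the left the groups are apart in 4 loci and overlap in 6.

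Few loci were lower in αKG. Of 371 TEC loci with a mean of at least 20, 16 had a log2 fold change below 0, and the groups were apart and lower in 3, none of which was called. Gm44645, which lies 2351 bases after *Rgma*, a co-receptor gene of bone morphogenetic protein signalling, stood at 55, 58 and 47 in DMSO and 27, 21 and 34 in αKG. The log2 fold change was -0.96 ± 0.23 (SE, limma adjusted p = 0.0527; 0.00565 without αKG replicate 3), and that of *Rgma* was -0.63 (adjusted p = 0.0623). D330025C20Rik overlaps the potassium channel gene *Kcng2* on the opposite strand and stood at 149, 128 and 151 in DMSO and 59, 66 and 118 in αKG, with -0.87 on the log2 scale (adjusted p = 0.0657; 0.00121 without αKG replicate 3). Gm37194 stood at 36, 28 and 34 in DMSO and 24, 21 and 20 in αKG (-0.57, adjusted p = 0.157). None of these lies in an intron on the gene's own strand.

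Whether a locus moved by a different amount than its gene was tested with limma on the log2 value of the locus minus that of the coding gene, over all 2666 non-coding rows held by exactly 1 coding gene. Of 1147 TEC loci in this fit, 117 rose against their gene (10.2%, against 5.74% of all rows tested) and 1 fell (against 0.15%). The rows tested include the TEC loci, which made up 117 of the 153 rows that rose. Of the 117, 115 were intronic, they lay in 85 coding genes, 35 were called themselves, and 3 of the coding genes were called higher and none lower. When the fit held only rows with a mean of at least 10, 200 of 536 TEC loci rose against their gene (37.3%, against 31.5%) and none fell (against 0.388%). At an unadjusted p under 0.05, 305 rose and 0 fell. TEC loci made up 536 of the 774 rows of that fit and 200 of the 244 that rose, so its shares are no outside comparison. The locus that fell, Gm43502 in *Dpp6*, a gene of a potassium channel subunit, was named after its values were seen: it was listed at 0, 0 and 0 in DMSO and 2, 1 and 0 in αKG, and *Dpp6* at 0, 0 and 0 and at 32, 68 and 0. The count was 652 (648 rose and 4 fell) without αKG replicate 3, against 35.2% and 1.39% of all rows tested, but 0 without αKG replicate 1 or 2. It was 3, 23 and 22 without DMSO replicate 1, 2 or 3. At an unadjusted p under 0.05, 229 to 394 loci still rose and 4 to 9 fell in these 5 fits.

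Among the 500 intronic loci with a mean of at least 10, which lay in 334 coding genes, 498 had a higher log2 fold change than their gene, with a median difference of 0.99. This mean includes the αKG libraries, so the set is tilted towards loci high in αKG. In DMSO alone 343 intronic loci reached a mean of 10, with a median log2 fold change of 0.93. The comparison with the gene is given only for the 500. Without αKG replicate 3 all 500 did, with a median difference of 1.39. Of 494 tested, 92 were called against their gene (18.6%), and 433 without αKG replicate 3. The shares of all rows tested were 5.74% and 35.2%, but these rows were of any level and are not a matched comparison. In the separate fit that held only rows with a mean of at least 10, 31.5% of 774 rows rose against their gene. Of these 774 rows 536 were TEC loci, and 37.3% of them rose. Shares of that fit cannot be set beside the 18.6%, which comes from the fit of rows of any level. The level of a locus was set against that of its gene per kb of exon. The median was 8.35%, 9.59% and 8.65% of the gene's level in the 3 DMSO libraries and 26.4%, 25.6% and 10.9% in the 3 αKG libraries. All αKG libraries were above DMSO, and αKG replicate 3 was the nearest to it. The coding genes that held any TEC locus, 737 in number, had a median log2 fold change of 0.01, against -0.03 in all protein_coding rows, and 43 were called higher (5.83%, against 2.83% of all rows) and 5 lower (0.678%, against 0.952%). Their median span was 94.3 kb, against 25.2 kb.

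The changes of locus and gene were also set against each other. The Spearman coefficient between the log2 fold changes of locus and gene was 0.42 over the 500 loci, which share the 6 libraries and in part their genes. In genes with a log2 fold change under -0.3 the 26 loci had a median of 0.62, and in genes above 0.3 the 66 loci had one of 1.49, while the difference between locus and gene was 1.07 and 1.01 in these groups. The coefficient was 0.41 without αKG replicate 3, and these medians of the loci were 0.87 and 2.1. The Spearman coefficient between the log2 fold change and the distance from the gene start was 0.33. The medians were 0.8 in 81 loci within 10 kb of the start, 0.88 at 10 to 30 kb (114 loci), 1.11 at 30 to 100 kb (171 loci), 1.25 at 100 to 300 kb (95 loci) and 1.2 beyond (39 loci). This coefficient was 0.35 without αKG replicate 3, and the medians ran from 1.03 within 10 kb to 1.7 beyond 100 kb. GC content moved with it: the median was 1.2 in 60 loci under 36% GC and 0.87 in 123 loci of 44% or more (1.63 and 1.14 without αKG replicate 3). With each library corrected for GC content and length, the median over all TEC loci was 0.57 in place of 0.86, and that over all rows -0.06 in place of 0.04.

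**Figure D4:**
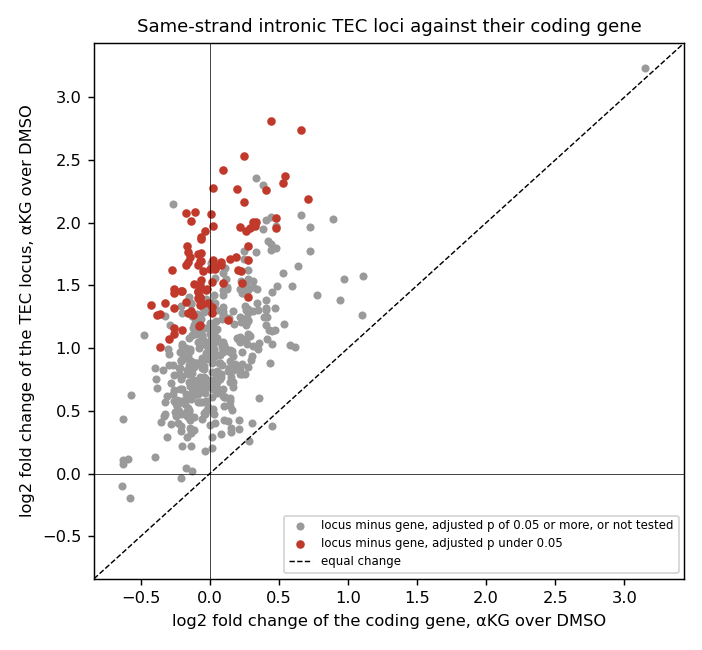
Log2 fold change (αKG over DMSO) of 500 intronic TEC loci with a mean of at least 10 (y axis) against that of the coding gene that holds them (x axis), with equal change as a dashed line. All but 2 loci lie above the line, and the 92 called against their gene are in red.

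Intronic loci with and without the poly(A) signal had close medians. With a mean of at least 10, the 83 with AATAAA or ATTAAA in the last 50 bases had a median log2 fold change of 1.11 and the 417 without it one of 1.04. In the other TEC loci the medians were 0.25 in 55 with the signal and 0.71 in 91 without it. These 4 medians were 1.45, 1.44, 0.35 and 0.96 without αKG replicate 3. The shares with groups apart and higher were 47.0% and 45.3% in intronic loci, and 25.5% and 36.3% in the others, against 16.1% of all rows at that level. No test was made between these groups.

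TEC loci were clustered in long genes, and 93 coding genes held 3 or more (408 loci). Loci in the same gene are not independent of each other. *Auts2*, a large gene named for its role in neurodevelopment, held 22, all intronic and all with a log2 fold change above 0 (0.25 to 2.42, median 1.16). Their values summed to 253, 344 and 264 in DMSO and 966, 855 and 340 in αKG, while *Auts2* itself stood at 1086, 1120 and 1111 and at 1160, 1150 and 1232. The sum was 3.17 times the DMSO mean in αKG replicates 1 and 2 and 1.18 times in replicate 3, whereas the gene changed by 0.09 on the log2 scale (limma adjusted p = 0.317). Of the 22, 1 was called (Gm43187), where 2.83% of all rows were called higher, and 7 (31.8%) had groups apart and higher, against 13.7% of all rows. The median of the 22 was 1.64 without αKG replicate 3.

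*Pcdh7*, a protocadherin gene, held 13 loci with log2 fold changes of 0.77 to 1.69. They summed to 506, 627 and 544 in DMSO and 1752, 1894 and 667 in αKG, and the gene had -0.07 (adjusted p = 0.399). Only αKG replicates 1 and 2 were far above DMSO, at 3.26 times its mean, against 1.19 in replicate 3. *Ank2* held 12, which summed to 120, 133 and 109 in DMSO and 610, 522 and 152 in αKG, and the gene had 0.28 (adjusted p = 0.101). *Maml3*, a coactivator of Notch signalling, held 10, which summed to 22, 35 and 26 in DMSO and 157, 143 and 35 in αKG. There αKG replicate 3 reached no more than the highest DMSO library. *Dis3l2*, an exoribonuclease gene, held 8, of which 6 had a log2 fold change above 0 (sums of 53, 39 and 48 against 94, 101 and 52).

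*Camk2d*, which encodes the cardiac form of the calcium/calmodulin-dependent kinase II, held 7 loci, 6 of them with groups apart and higher (against 13.7% of all rows), and 3 were called higher (against 2.83%). They summed to 277, 295 and 268 in DMSO and 937, 967 and 427 in αKG. Here αKG replicate 3 was above DMSO, at 1.52 times its mean, and *Camk2d* itself was called higher by 0.41 (adjusted p = 0.0446; 1834, 1906 and 1793 in DMSO and 2613, 2705 and 2079 in αKG). Gm43011 (chr3:126600029-126604461) stood at 124, 108 and 87 in DMSO and 337, 346 and 159 in αKG. Gm42515 stood at 71, 69 and 75 and at 219, 229 and 113. Gm43010 stood at 54, 69 and 59 and at 203, 226 and 87. These 3 were called higher by 1.32 ± 0.27, 1.3 ± 0.24 and 1.38 ± 0.31 (SE, limma adjusted p of 0.038, 0.0299 and 0.0453), but none was called against *Camk2d* (adjusted p of 0.0568, 0.066 and 0.0618). Gm43009, at 3, 10 and 13 in DMSO and 60, 55 and 19 in αKG, was called against the gene, by 1.85 ± 0.48 (adjusted p = 0.03).

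**Figure D5:**
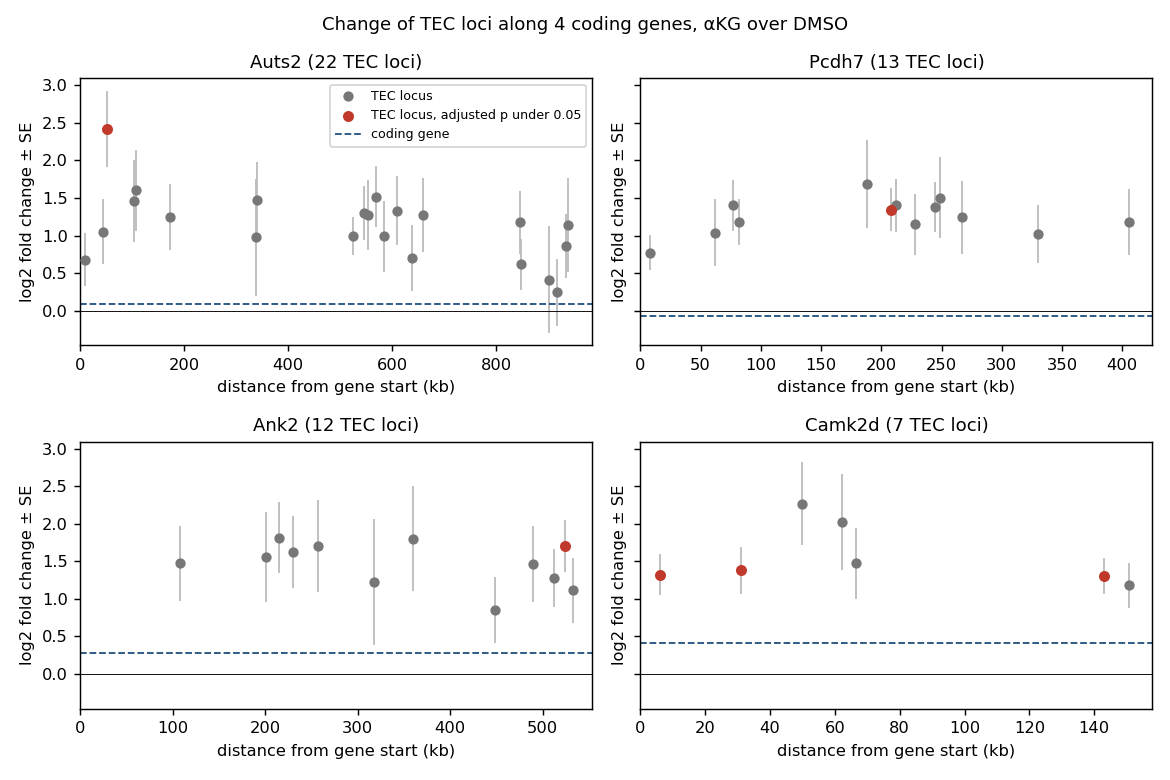
Log2 fold change ± SE (αKG over DMSO, y axes) of the TEC loci in *Auts2*, *Pcdh7*, *Ank2* and *Camk2d* against their distance from the gene start in kb (x axes), with called loci in red and the coding gene's own change as a dashed line. All 54 loci lie above the line of their gene.

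A list of non-coding RNAs regarded as nuclear was measured beside the TEC loci, since unspliced RNA is nuclear. The list was drawn up before these fits, but with earlier results of these data known. Where each of these RNAs lay in the cell was not measured, and some listed members may not be confined to the nucleus. Of 18 listed, 16 were measured, with a median log2 fold change of 0.82, and 1 was called higher (*Xist*, 0.49, limma adjusted p = 0.0494) and none lower, against 2.83% and 0.952% of all rows. Their values summed to 10030 to 10397 in DMSO and to 19234, 18983 and 10397 in αKG replicates 1 to 3, so that αKG replicate 3 was at the DMSO level. *Neat1*, the scaffold of paraspeckles, stood at 832, 953 and 946 in DMSO and 4264, 3886 and 846 in αKG (adjusted p = 0.11). *Kcnq1ot1*, an unspliced imprinted RNA, stood at 605, 749 and 587 in DMSO and 2180, 2280 and 751 in αKG (adjusted p = 0.0681). The list did not move evenly. The log2 fold change was 0.22 for *Malat1*, 0.29 for *Gas5*, 0.25 for *Firre*, 0.15 for *Jpx*, 0.14 for *Snhg1* and -0.09 for *Tug1*. Of 10 abundant spliced messages none was called, their median was 0.03, and they summed to 4527 to 4775 in DMSO and 4753 to 4952 in αKG. The part of nuclear RNA content in the values of TEC loci was not tested.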

How the data were processed

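Per the methods and the submitters' processing notes, the authors trimmed reads (Trimmomatic 0.39), aligned them to GRCm38 (STAR 2.7.10a) and summed reads that touched exons by gene (featureCounts 2.0.3), without reads of more than one gene or place. The unit of the deposited values is a score: counts that the authors scaled by DESeq2 (1.30.1) size factors and rounded. Depth was estimated from the steps between low values, and intervals of counting error were not used. The reads carry no molecular identifiers and can be PCR copies of one molecule.

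All 20066 rows were fitted with limma 3.58.1 (R 4.3.3, lmFit and eBayes with a mean trend) on log2(value + 1), with treatment as the only term and Benjamini-Hochberg adjustment over all rows. The pseudocount of 1 understates changes of low loci. The fits were tested on simulated data. The difference fit used non-coding rows held by exactly 1 protein_coding row. Summaries used Python 3.11.15. Positions are those of the table, and 1528 of 1532 were identical in GENCODE M21, which gave exons, GC content and transcript sequences. In that annotation 6 of the 1532 are protein_coding.

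Named loci were the 10 highest means, the 10 largest called rises among loci whose groups did not overlap at a mean of at least 20, the loci at that level whose groups were apart and lower, and the loci of the 6 coding genes that hold the most. The sixth, Camk2d, had the highest mean of 5 genes tied at 7 loci. Of its loci 4 are given singly and those of the rest mostly as sums. Members and lists were chosen with earlier results of these data known. Alternatives were filters, pseudocounts, scalings, the variance model, voom, a replicate block, corrections for GC content and length, and leaving out each library; the alternative by DMSO mean, the split by non-coding gene, and the values of classes, bands, shares and relations without αKG replicate 3 were added after the data were seen. Columns with the authors' own fold changes and p-values were not used.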

Additional observations from a re-analysis of the deposited data

How the results depend on the processing

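The median log2 fold change of TEC loci stayed above 0 in every alternative run, at 0.53 (pseudocount 5) to 1.16 (without αKG replicate 3), and the all-row median moved from 0.04 to -0.06 with quantile normalization or GC and length correction. The 69 calls became 23 (22 higher) with quantile normalization, 45 (43 higher) with GC and length correction, 3 without a mean trend, 8 with limma-voom on estimated reads, 0 with DMSO replicates 2 and 3 averaged (466 higher and 4 lower at an unadjusted p under 0.05) and 625 with no adjustment. Leaving out 1 library gave 0 to 752. The 118 loci that differed from their gene (117 higher) became 200 at a mean of at least 10, 198 (176 higher) with a pseudocount of 5, 181 (180 higher) with the median ratio over coding rows, 468 with no adjustment, and 0 with no trend of the variance and also after averaging DMSO replicates 2 and 3 (362 and 351 higher, 10 and 5 lower, unadjusted). Leaving out 1 library gave 0 to 652. Replicate numbers are shared between groups, and whether same-numbered libraries were prepared together is not given. Their deviations from the group means correlated at -0.074, 0.136 and 0.002. With 3 libraries per group such correlations cannot exclude a pairing. The replicate block gave 0 calls (609 higher and 6 lower unadjusted) and 207 loci that differed from their gene (206 higher), and the replicate block with GC and length correction gave 117 calls (113 higher). For the 31 named loci, 384 of 556 values under alternatives kept direction and side of the threshold, 146 lost the call, 22 gained it and 4 changed sign: Gm44250 to -0.18 and Gm37296 to -0.39, each with GC and length correction with and without the replicate block. The cause of these changes was not tested. Depth limits loci of few reads, of which 886 had a mean under 10.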
